A study of Drosophila melanogaster with 21 samples.

Results

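The comparison described here set heads of flies collected 1 h after training with an odor and sucrose against heads of fed flies that were never trained. It used 6 heads 1 h after training and 5 fed heads, which are 11 of the 21 heads of the experiment, and each sample was the head of a single female Drosophila melanogaster with a library of its own. The trained flies had been deprived of food for about a day, were then exposed to one odor without sugar and to another odor with sucrose, and were collected 1 h later. The fed flies were neither starved nor trained and received no sugar reward. The remaining heads came from flies that were starved and not trained (5 heads) and from flies collected 4 h after the same training (5 heads), and all flies were kept at 25 °C in a 12:12 light and dark cycle. The sources used here do not give the strain or the age, nor whether the trained flies received food between training and collection. Against the fed heads, starvation, odors, sugar, handling and the time since the meal came together, so their shares cannot be told apart in this comparison.

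In flies the fat body does the work of both liver and adipose tissue, and a part of it lies in the head around the brain. It stores glycogen and triglyceride, in females it makes yolk proteins, and it secretes peptides that tell the brain about the nutritional state. When food is withdrawn, insulin signaling falls, the transcription factor FoxO is active, and lipid is mobilized and burned in mitochondria. When sugar returns, the Mondo and Mlx transcription factors and their targets respond, glycogen and fat synthesis resume, and neurons that were strongly activated express a set of activity-regulated genes.

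Of the 10501 genes tested (an RPKM, a read count corrected for gene length and library size, of at least 1 in at least 5 of the 21 heads), 943 differed between heads 1 h after training and fed heads, which was 8.98%. Here and below a gene is said to have risen, fallen or been called when its adjusted p in limma on log2(RPKM + 1), with Benjamini-Hochberg adjustment over all genes tested, was below 0.05. Of the called genes, 539 were higher at 1 h (5.13% of genes tested) and 404 were lower (3.85%). Most differences were small, with a median log2 fold change of 0.41 among the higher and −0.43 among the lower genes, and 42 rose and 70 fell by at least 1 on the log2 scale. The heads of both groups did not overlap for 496 genes (4.72%), and 385 of those were among the called genes. Reads on genes numbered 47899160 to 67792565 per head at 1 h and 39903069 to 66553893 in fed heads. Because 1 was added before taking logs, differences of genes with few reads come out smaller than their ratio of RPKM.

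The calls leaned on a few heads. Head 3 of the 1 h group and head 2 of the fed group were farthest from the other heads of their own groups. Small structural RNA genes took up 3.25% of the library of fed head 2, and at most 0.026% of any other. The total RPKM of fed head 2 was 820048, and the next highest was 597559 in fed head 6. Setting every head to the same total RPKM multiplied the values of fed head 2 by 0.604. The part of this library in the calls was not tested apart from the fits given here. Head 5 of the 1 h group was not among the farthest, but with 1 h head 3 it held the extreme value of many called genes. Among genes that rose, the highest value lay in 1 h head 3 for 46.0% and in 1 h head 5 for 34.7%. Among genes that fell, the lowest value lay in 1 h head 3 for 44.6% and in 1 h head 5 for 29.0%. Over the 11 fits that left out a single head the count ran from 278 without fed head 6 and 326 without 1 h head 5 to 1655 without fed head 1. It was 361 without fed head 2, 401 without fed head 3, 523 without 1 h head 3 and 1375 without 1 h head 2. A fit without 1 h heads 3 and 5 called 153 genes, and one without 1 h head 3, fed head 2 and starved head 3 called 349. In all, 240 genes (2.29%) were called in each of the 11 fits, and 123 genes (1.17%; 79 higher and 44 lower) were called in all 13 fits that left out heads. These 123 are said below to have held in every fit that left out heads, or in every fit for short. The fit of only the 11 heads is not among the 13. It called 131 genes, of which 120 were among the 943, and it called 68 of the 123. Of 101 called genes named here it kept 41, and of those held in every fit it did not call CG12655, ref(2)P, CG17778 and meng (adjusted p 0.0516 to 0.0995), nor 6 of the genes named in the closing section. The split between higher and lower genes depended on scaling. With the values as deposited 57.2% of called genes were higher, and with every head set to the same 75th percentile 48.5% were. With every head set to the same total RPKM 95.1% were higher and the all-gene median lay 0.27 higher. The library size behind the deposited RPKM was 0.813 to 1.01 times the reads on genes in fed heads. At 1 h it was 0.961 to 1.10 times. These other scalings and voom on recovered reads replace that size. The 10 genes with most reads held 15.6% to 19.5% of reads in fed heads and 10.6% to 13.4% at 1 h. The part of this in the shift was not tested.

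A library of a whole head mixes cell types, so fewer cells of a type and less RNA per cell cannot be told apart. Marker lists of neurons (7 genes), glia (7), photoreceptors (8), hemocytes (7), muscle (8) and oenocytes (2) had 0 called genes in limma, at an unadjusted p below 0.05 for 3 higher and 10 lower of these 39 genes and with 2 higher calls by voom on recovered reads. The summed level of the 7 neuronal markers was 680 to 715 RPKM at 1 h and 566 to 766 RPKM in fed heads. The sum of the 6 fat body markers was 343 to 1189 RPKM at 1 h and 689 to 2059 RPKM in fed heads, and 1 of the 6 was called. The sum of 9 muscle markers, of which 8 passed the filter, was 562 to 1930 RPKM at 1 h and 1225 to 2610 RPKM in fed heads. Ovary and eggshell markers, none of which passed the filter, summed to 1.24 to 41.0 RPKM at 1 h, with a median of 1.54, and to 1.32 to 1.8 RPKM in fed heads. The sum of the 7 glial markers was 491 to 804 RPKM at 1 h and 728 to 1011 RPKM in fed heads. Of these 7 genes 3 had a positive log2 fold change, and their median was −0.17. Among them wrapper, which was not called, was at 3.11, 1.17 and 1.37 RPKM in 1 h heads 1, 3 and 5. In fed heads wrapper was at 10.3 to 14.4 RPKM. The part of these tissue levels in the results below was not tested.

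Among 54 lists of genes grouped by function, the largest share of called genes lay in activity-regulated genes on the higher side and, among lists of at least 10 genes, in secreted proteins of the head fat body on the lower side. The plot of called genes by list shows both beside the shares over all genes. Because the lists were chosen with earlier results of these data known, their ranks are descriptive only.

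**Figure D1:**
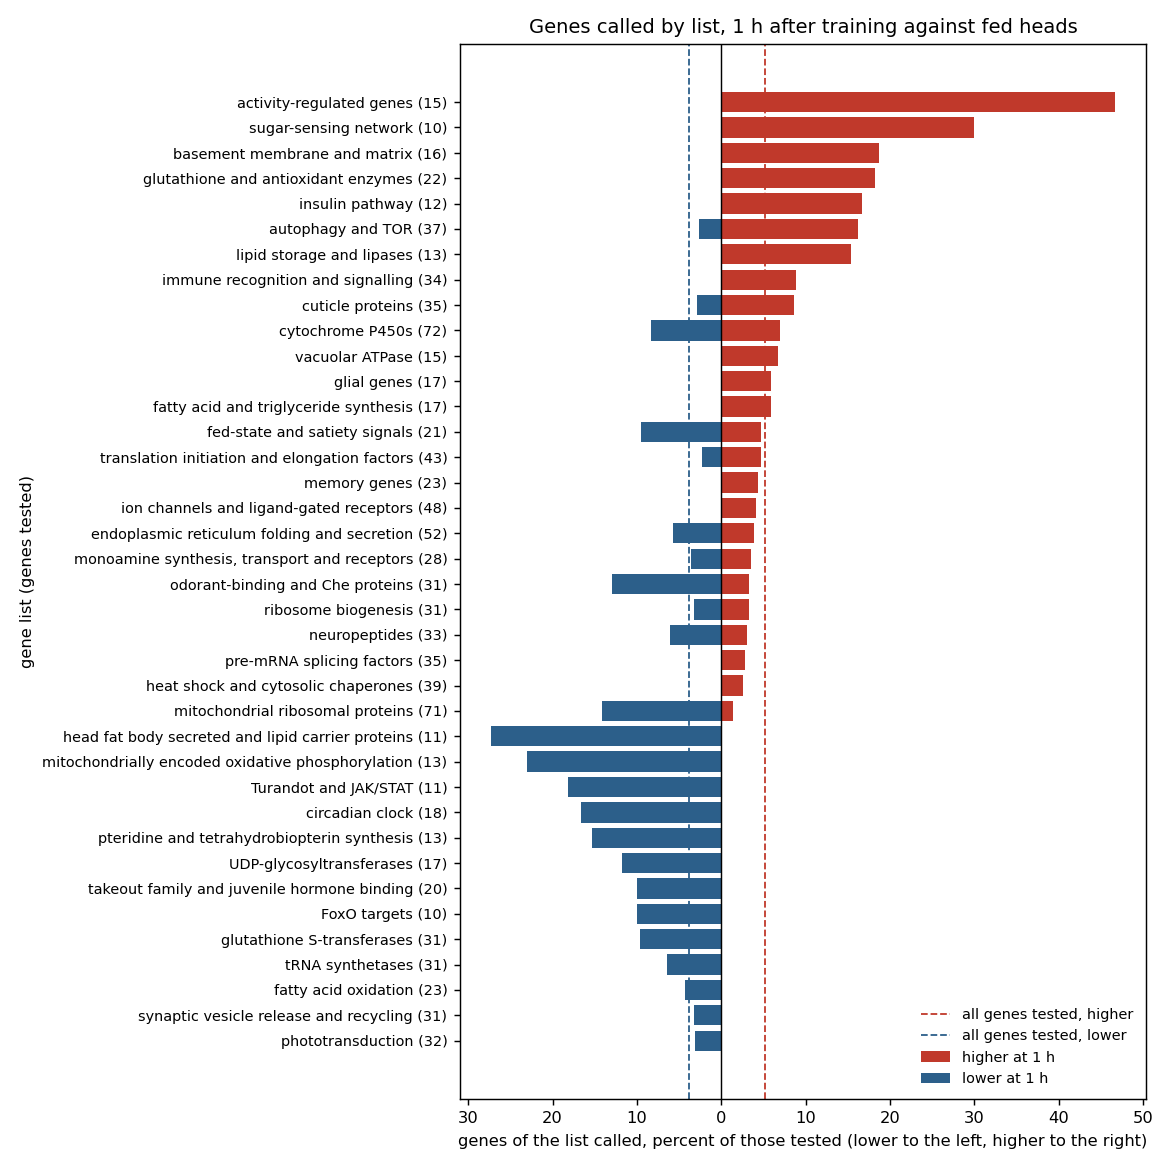
Share of the genes of each list that were called higher (to the right) or lower (to the left) 1 h after training than in fed heads, in percent of the genes tested, for lists with at least 10 genes tested and at least 1 called; the number tested is in parentheses and dashed lines mark 5.13% and 3.85%, the shares over all genes. Activity-regulated genes reach furthest to the right with 7 of 15 called, and secreted proteins of the head fat body furthest to the left with 3 of 11.

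Products of the female fat body were among the genes furthest below the fed state. All 4 genes of this short list, the yolk protein genes Yp1, Yp2 and Yp3 and the satiety peptide gene fit, fell, with a median log2 fold change of −4.05 beside −0.01 over all genes tested. Yp2, which encodes a yolk protein taken up by the oocyte, had 85.3 RPKM in the lowest, 348 in the median and 4403 in the highest 1 h head, against 8199, 11528, 13978, 6463 and 13534 RPKM in fed heads. The 1 h heads spread widely and heads 3 and 5 were lowest, yet none reached the lowest fed head. The log2 fold change was −4.49 ± 1.03 (SE), with an adjusted p of 0.0162 that was at most 0.0453 in the fits that left out a single head and was 0.102 without both 1 h heads 3 and 5. Yp1 had 212 to 11595 RPKM at 1 h, with a median of 1226, against 14842, 25316, 26500.0, 15876 and 27571 RPKM in fed heads. Again the groups did not overlap, with 1 h heads 2 and 6 nearest to the fed range. Its log2 fold change was −3.87 ± 1.11 (adjusted p = 0.0372), and the call was lost without any of 1 h heads 1, 3, 4 and 5 or fed heads 2, 3, 5 and 6 (adjusted p 0.0512 to 0.0913). The antisense gene asRNA:CR45601 shares exons with Yp1 and the strand was not kept, so its log2 fold change of −3.89 cannot be told apart from that of Yp1. Yp3 had 267, 926 and 4859 RPKM in the lowest, median and highest 1 h head, against 8016, 17574, 14398, 6219.7 and 20320.0 RPKM in fed heads, also without overlap. It fell by 3.46 ± 0.89 on the log2 scale (adjusted p = 0.0245), and the call was lost without 1 h head 3 or 5 or without fed head 2, 3 or 6 (0.0545 to 0.0673).

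The gene fit encodes a female fat body peptide that acts as a satiety signal after protein meals. It had 2.14, 34.1 and 108 RPKM in the lowest, median and highest 1 h head, against 263, 1102, 672, 223 and 717 RPKM in fed heads. Every 1 h head lay below every fed head, and the mean of fed heads was 14.5 times that of 1 h heads. With a log2 fold change of −4.22 ± 0.81 (adjusted p = 0.00646) the call held in every fit, including the one without 1 h heads 3 and 5 (adjusted p = 0.0320).

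The genes that lie against fit fell with it. In BDGP6.54, fit occupies 3R:21883924-21884454 on the minus strand, and CG31465 (3R:21880810-21883990, plus strand), the antisense gene asRNA:CR45046 (3R:21878672-21884101, minus strand), P5CDh2 (3R:21877936-21880696, plus strand) and CG34148 (3R:21877870-21878686, minus strand) follow downstream. CG31465 had 0.0397, 0.524 and 1.53 RPKM in the lowest, median and highest 1 h head, against 5.39, 12.9, 19.6, 4.96 and 19.5 RPKM in fed heads. All 1 h heads were far below all fed heads. The adjusted p of 9.84e-05 was the smallest of all genes tested in this comparison (log2 fold change −2.93 ± 0.30). The antisense gene fell by 3.29 ± 0.37 on the log2 scale (adjusted p = 0.000229). P5CDh2, named for the enzyme that converts pyrroline-5-carboxylate to glutamate in proline breakdown, had 2.53, 3.21 and 3.81 RPKM in the lowest, median and highest 1 h head, against 8.59, 10.8, 25.9, 7.97 and 27.3 RPKM in fed heads. Its 1 h heads sat close together and below all fed heads (log2 fold change −1.83 ± 0.24, adjusted p = 0.000693). CG34148, chosen after its values were seen because it ends this row of genes, fell by 0.98 ± 0.16 on the log2 scale (adjusted p = 0.00262). All 5 calls held in every fit. Exons of neighbours overlap by 67 bases between fit and CG31465, 3001 between CG31465 and the antisense gene, 1830 between the antisense gene and P5CDh2, 425 between P5CDh2 and CG34148, 32 between the antisense gene and fit and 15 between the antisense gene and CG34148, so without strand the reads of overlapping stretches cannot be told apart. The map of the genes around fit shows that fit and CG34148 themselves do not overlap.

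**Figure D2:**
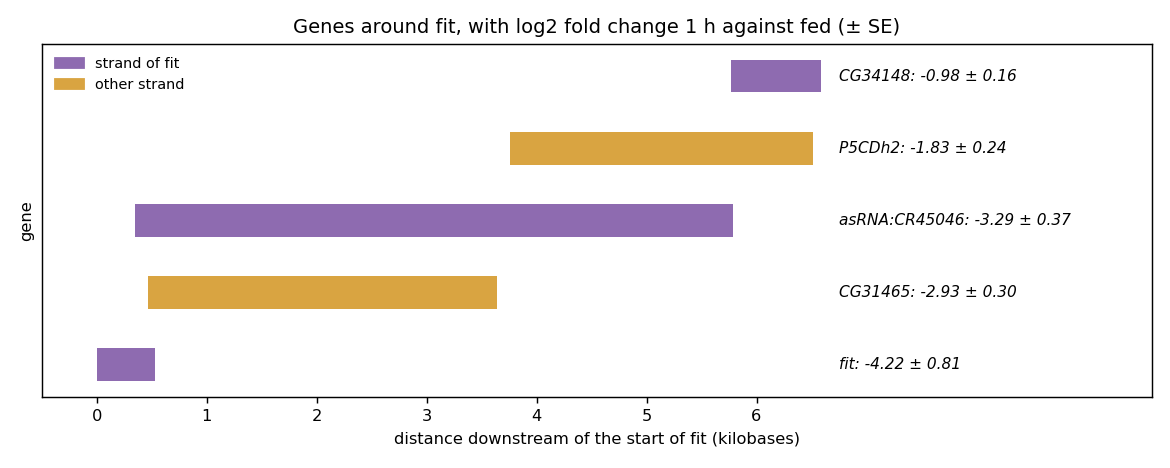
Position of the 5 genes around fit, as distance downstream of the start of fit in kilobases, colored by strand, with the log2 fold change and SE of each gene 1 h after training against fed heads. All 5 fell, from −0.98 ± 0.16 for CG34148 to −4.22 ± 0.81 for fit.

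Of 11 tested genes for secreted and lipid carrier proteins of the head fat body, 3 fell and 0 rose (median −0.42). The gene to (takeout), which encodes a secreted protein tied to feeding and the clock, had 8.63, 22.6 and 45.3 RPKM in the lowest, median and highest 1 h head, against 63.2, 74.7, 88.3, 89.7 and 82.5 RPKM in fed heads. The fed heads were close together and all 1 h heads lay below them. The log2 fold change was −1.79 ± 0.29 (adjusted p = 0.00262) and held in every fit. The lipoprotein gene apolpp, precursor of the main lipid carrier of the hemolymph, had 6.57, 123 and 389.8 RPKM in the lowest, median and highest 1 h head, against 340.4, 1373, 751, 455 and 780.0 RPKM in fed heads. The highest 1 h head reached into the fed range, and 1 h heads 3 and 5 were far below the rest (log2 fold change −3.04 ± 0.91, adjusted p = 0.0431). That call was lost without any of 1 h heads 1, 3 and 5 or fed heads 2, 3, 5 and 6 (adjusted p 0.0550 to 0.108). The storage protein gene Lsp2 had 0.901 to 3.51 RPKM at 1 h, against 3.35, 1520.1, 241, 2.47 and 1891 RPKM in fed heads. Its fall (log2 fold change −5.16 ± 1.27, adjusted p = 0.0217) came from fed heads 2, 3 and 6, whereas fed heads 1 and 5 were within the range of 1 h heads. Without fed head 2, 3 or 6 the adjusted p was 0.0639, 0.0543 or 0.0651. The lipid transfer gene Apoltp, the lipocalin genes Karl and NLaz and the transferrin gene Tsf1 were not called, with log2 fold changes of −0.47, −0.42, −0.25 and 0.03.

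**Figure D3:**
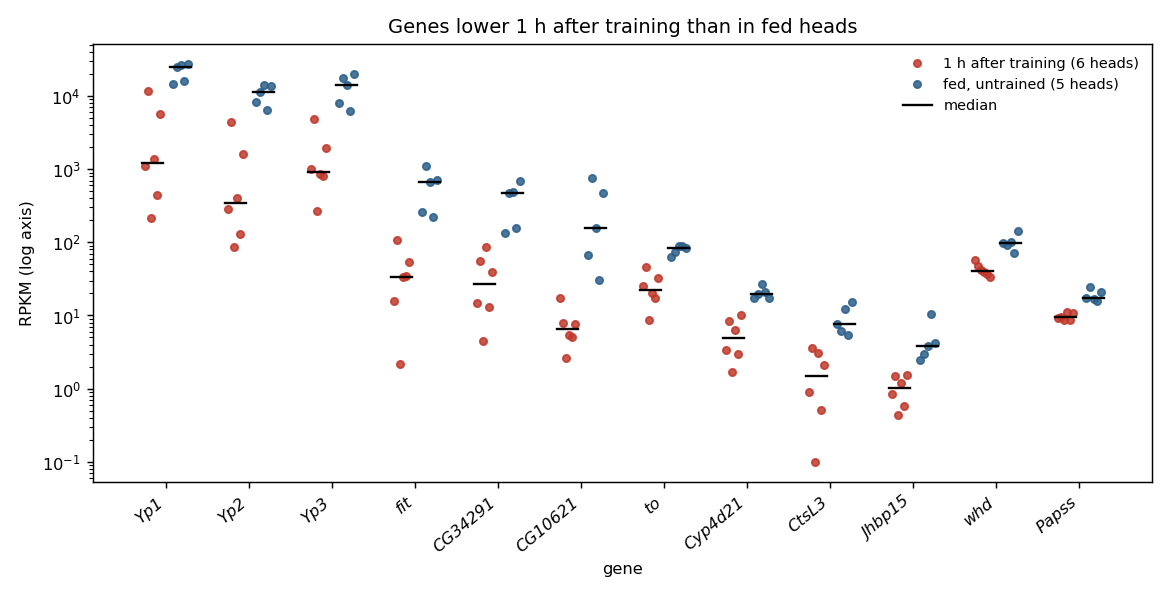
RPKM per head on a log axis for 12 genes that fell, with 6 heads 1 h after training left of 5 fed heads and a black line at each median. For Yp2, fit, to, whd and Papss all 1 h heads lie below all fed heads, and for the yolk protein genes the 1 h heads spread over more than a factor of 10.

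Outside these lists, further low genes named for the size of their change were CG10621 and CG34291. CG10621 had 2.62, 6.57 and 17.1 RPKM in the lowest, median and highest 1 h head, against 66.3, 757, 156, 30.2 and 469.9 RPKM in fed heads. CG34291 had 4.45, 26.9 and 86.0 RPKM in the lowest, median and highest 1 h head, against 134, 479.5, 495, 155 and 699.6 RPKM in fed heads. For both, all 1 h heads were below all fed heads, and the log2 fold changes were −4.42 ± 0.97 (adjusted p = 0.0131) and −3.69 ± 0.84 (adjusted p = 0.0157). Without 1 h heads 3 and 5 the adjusted p was 0.0747 for CG10621 and 0.0932 for CG34291. CG31775 and CG34166, also among the 12 lowest, lost their calls without 1 h head 3 or 5 or fed head 6 (adjusted p 0.0559 to 0.0947), and also without 1 h head 1 for CG31775 (0.0511) and fed head 2 or 3 for CG34166 (0.0986 and 0.0784). Named by their small p instead, Papss and CG18542 fell less but evenly. Papss, which makes the activated sulfate that sulfotransferases use, had 8.55, 9.49 and 10.98 RPKM in the lowest, median and highest 1 h head, against 17.4, 24.4, 17.0, 15.6 and 20.6 RPKM in fed heads. The spread within each group was small beside the gap (log2 fold change −0.90 ± 0.11, adjusted p = 0.000361). CG18542 fell by 0.32 ± 0.04 on the log2 scale (adjusted p = 0.00105) with the values as deposited, but with the same total RPKM in every head its log2 fold change was −0.03. The cathepsin-L type protease gene CtsL3, chosen after its values were seen, had 0.0989, 1.49 and 3.62 RPKM in the lowest, median and highest 1 h head, against 7.69, 6.06, 12.3, 5.32 and 15.5 RPKM in fed heads. Its groups did not overlap (log2 fold change −2.03 ± 0.39, adjusted p = 0.00646), and the calls of CtsL3, Papss and CG18542 held in every fit.

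Fed-state and satiety signals were called in 14.3% and insulin pathway genes in 16.7% of those tested, beside 8.98% over all genes. Of 21 tested fed-state and satiety signals, 1 rose (daw) and 2 fell (fit and Ilp5), and with the same total RPKM in every head 6 rose and 2 fell. Ilp5, an insulin-like peptide of the brain, had 0.621, 1.74 and 3.57 RPKM in the lowest, median and highest 1 h head, against 4.26, 12.8, 5.55, 2.49 and 10.03 RPKM in fed heads. Fed head 5 lay within the 1 h range and the other fed heads were above it (log2 fold change −1.39 ± 0.34, adjusted p = 0.0212). The call was lost without fed head 2 or 6 (adjusted p 0.0639 and 0.0651) and without both 1 h heads 3 and 5 (0.108). The peptide genes Dsk and Gbp2 were not called, at log2 fold changes of 0.21 and −0.15. In the insulin pathway 2 of 12 tested genes rose, the adaptor gene Lnk (log2 fold change 0.41 ± 0.10, adjusted p = 0.0165) and the receptor substrate gene chico (0.49 ± 0.14, adjusted p = 0.0329), and neither was called without 1 h heads 3 and 5 (0.0964 and 0.176). The chico call was also lost without 1 h head 1, 3 or 5 or fed head 2, 3 or 6 (adjusted p 0.0533 to 0.0932). The FoxO gene foxo was at 0.27 ± 0.13 and was not called. Of 10 tested FoxO targets 0 rose and 1 fell at a median of 0.35, whereas 4 rose and 1 fell with the same total RPKM in every head and 3 rose and 1 fell by voom. The gene that fell was the alpha-glucosidase gene tobi, whose fed level came from the same fed heads 2, 3 and 6 as that of Lsp2 (673, 79.5 and 542 RPKM). Its log2 fold change was −4.19 ± 1.06 (adjusted p = 0.0228), and the call was lost without 1 h head 5 or fed head 2, 3 or 6 (0.0540 to 0.0702). Thor, the translational repressor 4E-BP, had 297 to 1343 RPKM at 1 h and 232 to 397 RPKM in fed heads and was not called (log2 fold change 0.92 ± 0.32, adjusted p = 0.0739).

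In the sugar-sensing network 3 of 10 tested genes rose and 0 fell (median log2 fold change 0.41), and 0 were called without 1 h heads 3 and 5. The zinc finger gene cbt (cabut), a target of Mondo and Mlx, had 31.2, 41.1 and 79.2 RPKM in the lowest, median and highest 1 h head, against 19.7, 20.2, 31.8, 20.8 and 19.3 RPKM in fed heads. Fed head 3 was just above the lowest 1 h head, and all other fed heads were below all 1 h heads (log2 fold change 1.05 ± 0.25, adjusted p = 0.0173, and 0.0529 without fed head 6). The gene bigmax, the fly Mlx and partner of Mondo, had 25.4, 28.3 and 46.7 RPKM in the lowest, median and highest 1 h head, against 20.3, 18.8, 18.0, 21.4 and 19.3 RPKM in fed heads. It rose without overlap by 0.67 ± 0.15 on the log2 scale (adjusted p = 0.0134). The activin-type ligand gene daw (dawdle), known to respond to dietary sugar, had 19.8, 31.2 and 54.7 RPKM in the lowest, median and highest 1 h head, against 11.5, 7.03, 12.1, 12.0 and 13.6 RPKM in fed heads. Its groups did not overlap either, but the call (log2 fold change 1.46 ± 0.39, adjusted p = 0.0294) was lost without any of 1 h heads 1, 3 and 5 or fed heads 2, 3 and 6 (0.0557 to 0.0804). Without 1 h heads 3 and 5 none of the 3 was called, at adjusted p of 0.0781 for cbt, 0.0567 for bigmax and 0.157 for daw. Mondo itself was level, at a log2 fold change of 0.07 ± 0.20. The Gli-type gene sug (sugarbabe), another Mondo target, had 16.4 to 67.0 RPKM at 1 h and 8.5 to 19.8 RPKM in fed heads, overlapped, and was not called (1.08 ± 0.59, adjusted p = 0.236).

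The enzymes of carbohydrate metabolism had 0 calls by limma in glycolysis (16 tested, median −0.11), glycogen and trehalose metabolism (9, −0.24), the pentose phosphate pathway (5, 0.29), and the tricarboxylic acid cycle (22, −0.04). An unadjusted p below 0.05 was found for 1, 2, 0 and 1 of these genes, and voom on recovered reads called 2, 1, 0 and 1. Pepck1, the gluconeogenic enzyme, had 12.4 to 237 RPKM at 1 h and 226 to 1064 RPKM in fed heads and was not called with all heads (log2 fold change −3.15 ± 1.12, adjusted p = 0.0800), whereas it was called at −3.29 in the fit without 1 h head 3, fed head 2 and starved head 3 (adjusted p = 0.00681).

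In lipid metabolism, a gene for the entry of fatty acids into mitochondria was below and a regulator gene of lipid synthesis above the fed state. The gene whd (withered) encodes carnitine palmitoyltransferase 1, which admits long fatty acids to mitochondria. It had 33.6, 40.3 and 57.8 RPKM in the lowest, median and highest 1 h head, against 99.2, 90.5, 99.6, 71.9 and 143 RPKM in fed heads. All 1 h heads were below all fed heads, and the call (log2 fold change −1.20 ± 0.23, adjusted p = 0.00616) held in every fit. It was the only called gene among 23 tested genes of fatty acid oxidation (median −0.21), or 4.35%, beside 3.85% lower over all genes. The beta-oxidation genes Mcad and yip2 had log2 fold changes of −0.71 and −0.53 and were not called. SCAP, which escorts the lipid-synthesis factor SREBP, had 26.7, 28.4 and 33.9 RPKM in the lowest, median and highest 1 h head, against 21.1, 19.2, 19.3, 21.6 and 19.8 RPKM in fed heads. The gap between groups was larger than the spread in either, and the rise (log2 fold change 0.51 ± 0.07, adjusted p = 0.00102) held in every fit. It was the 1 gene called of 17 tested in fatty acid and triglyceride synthesis, or 5.88%, beside 5.13% higher over all genes. The median of this list was 0.55. Desat1 and AcCoAS of the same list were at 0.22 ± 0.55 and 0.88 ± 0.43 and were not called. Pcyt1, the rate-limiting step of phosphatidylcholine synthesis, had 59.7, 99.8 and 259 RPKM in the lowest, median and highest 1 h head, against 45.3, 44.1, 57.8, 35.2 and 44.8 RPKM in fed heads. It rose by 1.298 ± 0.30 on the log2 scale (adjusted p = 0.0160), most in 1 h heads 3 and 5, without which the adjusted p was 0.0525. Of 13 tested lipid storage and lipase genes 2 rose, puml and the hormone-sensitive lipase gene Hsl (log2 fold changes 0.79 ± 0.21 and 0.21 ± 0.06, adjusted p 0.0294 and 0.0410), and leaving out single heads took the adjusted p up to 0.0784 and 0.108. The call of puml was lost without any of 1 h heads 1, 3 and 5 or fed heads 2, 3, 5 and 6, and that of Hsl without these or 1 h head 4.

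Among the 12 genes with the largest rise, CG32512, CG12655, Drat and CG16978 were called in every fit. CG32512 had 6.29, 14.2 and 32.1 RPKM in the lowest, median and highest 1 h head, against 2.96, 3.95, 4.05, 3.35 and 2.85 RPKM in fed heads. The fed heads were nearly equal and 1 h heads 1 and 5 were highest (log2 fold change 1.89 ± 0.33, adjusted p = 0.00408). CG12655 had 9.59, 20.2 and 40.9 RPKM in the lowest, median and highest 1 h head, against 6.93, 5.50, 4.90, 7.49 and 6.39 RPKM in fed heads (log2 fold change 1.53 ± 0.30, adjusted p = 0.00726). Drat had 98.1, 144 and 315 RPKM in the lowest, median and highest 1 h head, against 66.6, 52.3, 61.4, 55.5 and 65.3 RPKM in fed heads. It rose by 1.43 ± 0.23 on the log2 scale (adjusted p = 0.00262). CG16978 had 49.4, 58.8 and 65.05 RPKM in the lowest, median and highest 1 h head, against 20.2, 24.5, 21.8, 24.6 and 18.7 RPKM in fed heads. Its 1 h heads were the most even of these 4 genes, with heads 3 and 5 in the middle (log2 fold change 1.35 ± 0.22, adjusted p = 0.00264). None of these 4 overlapped between groups.

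Of the other genes with the largest rises, Pcyt1 and CG9733 were called in each leave-one-out fit, and the rest lost their calls without certain single heads. Sid, a stress-induced nuclease gene, had the largest log2 fold change of these 12 genes (2.91 ± 0.77, adjusted p = 0.0276), with 9.99, 19.1 and 71.5 RPKM in the lowest, median and highest 1 h head, against 1.75, 1.11, 2.64, 4.18 and 1.18 RPKM in fed heads. Its call was lost without 1 h head 3 or 5 or fed head 2, 3 or 6 (adjusted p 0.0510 to 0.0702). Miox, the enzyme that breaks down inositol, had 376, 715 and 2017 RPKM in the lowest, median and highest 1 h head, against 169, 136, 248, 214 and 213 RPKM in fed heads. All 1 h heads were above all fed heads, yet the call (2.06 ± 0.60, adjusted p = 0.0394) was lost without any of 1 h heads 1, 3 and 5 or fed heads 2, 3, 5 and 6 (0.0537 to 0.0999). The neprilysin-type peptidase gene Nepl4 (1.93 ± 0.50), the stress gene Gadd45 (1.69 ± 0.46), CG9733 (1.61 ± 0.32) and the cuticle gene Edg91 (1.59 ± 0.40) rose without overlap at adjusted p of 0.0258, 0.0313, 0.00873 and 0.0221. The calls were lost without 1 h head 5 or fed head 2 or 6 for Nepl4, without 1 h head 3 or 5 or fed head 2, 3, 5 or 6 for Gadd45, and without fed head 2 or 6 for Edg91 (adjusted p up to 0.0706). Without 1 h heads 3 and 5 none of these 4 was called (0.0525 to 0.151). The Snail-family factor gene Kah (Kahuli), named by its small p, had 5.05, 8.5 and 12.5 RPKM in the lowest, median and highest 1 h head, against 3.02, 2.41, 3.19, 2.90 and 2.62 RPKM in fed heads. It rose by 1.28 ± 0.18 on the log2 scale (adjusted p = 0.000873) in every fit. CG4577 had 178, 194 and 206 RPKM in the lowest, median and highest 1 h head, against 129.8, 101, 138, 132 and 127 RPKM in fed heads and also held in every fit (0.63 ± 0.08, adjusted p = 0.000563).

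**Figure D4:**
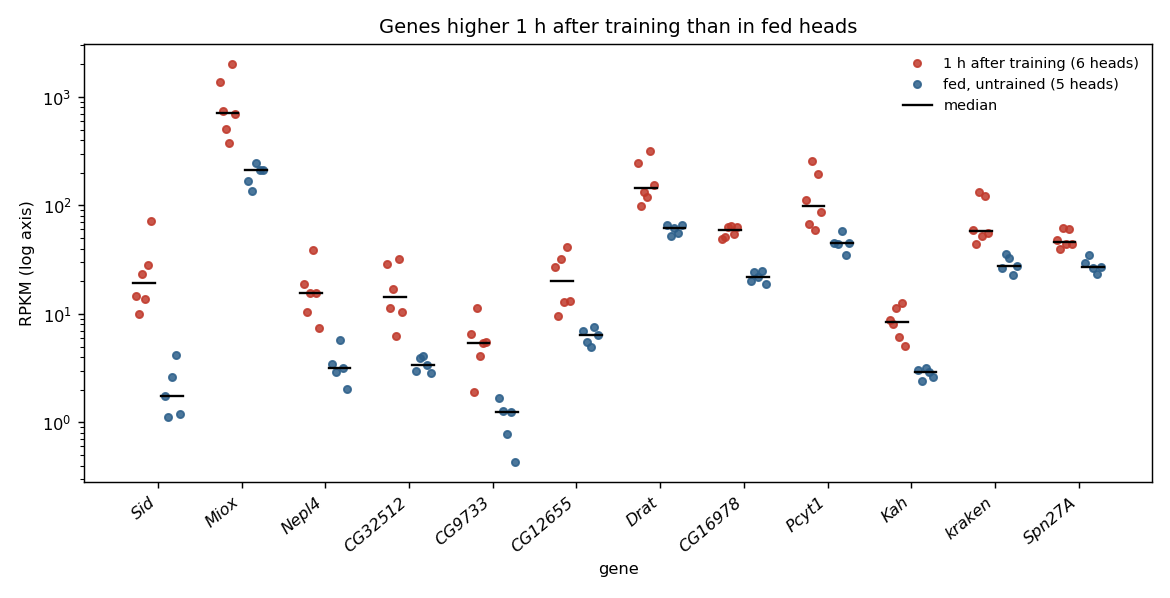
RPKM per head on a log axis for 12 genes that rose, with 6 heads 1 h after training left of 5 fed heads and a black line at each median. All 1 h heads lie above all fed heads in each of the 12, and CG16978 and Spn27A are the most even at 1 h, with log2 fold changes of 1.35 ± 0.22 and 0.78 ± 0.13.

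Activity-regulated genes, which neurons switch on after strong activity, had the largest share of higher calls among the lists. The lists were chosen with earlier results of these data known, so this rank is not a test. Of 15 tested genes 7 rose and 0 fell (median log2 fold change 0.38), beside 5.13% higher over all genes, and 5 of the 7 held in every fit. The gene sr (stripe), a homolog of the mammalian Egr factors, had 3.59, 3.92 and 4.74 RPKM in the lowest, median and highest 1 h head, against 2.25, 1.92, 2.72, 2.17 and 1.91 RPKM in fed heads. Both groups were even and did not overlap (log2 fold change 0.66 ± 0.10, adjusted p = 0.00140). Hr38, the fly homolog of the NR4A nuclear receptors, had 5.50, 8.25 and 10.5 RPKM in the lowest, median and highest 1 h head, against 3.86, 3.82, 4.63, 4.73 and 4.47 RPKM in fed heads. It also rose without overlap (0.78 ± 0.15, adjusted p = 0.00646). CG14186 had 35.9, 38.1 and 42.2 RPKM in the lowest, median and highest 1 h head, against 25.7, 19.3, 27.7, 22.2 and 22.6 RPKM in fed heads (0.70 ± 0.09, adjusted p = 0.000796). The remaining calls were cbt, already counted in the sugar-sensing network, and 3 genes named after their values were seen. These were the Jun gene Jra (0.46 ± 0.12, adjusted p = 0.0283), meng (0.40 ± 0.09, adjusted p = 0.0131) and CG17778 (0.38 ± 0.08, adjusted p = 0.0116). Jra lost its call without 1 h head 5 or fed head 2 or 6 (adjusted p 0.0552 to 0.0751). In the fit of only the 11 heads meng and CG17778 were not called. Among the list's genes not called, Arc1, a retroviral Gag-like gene tied to synapses and to energy balance, was at −0.39 ± 0.37. The other neuronal lists changed little, with 1 of 23 memory genes (Gclc), 2 of 48 ion channel and receptor genes and 0 of 31 synaptic vesicle genes higher, and 0, 0 and 1 lower.

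Set beside the other groups, which are compared with the same fed heads, the 1 h values took several courses, as the plot of levels in the 4 groups shows. Starved heads differed from fed heads in 159 genes (1.51%) and 4 h heads in 357 (3.40%). Heads at 1 h differed from starved heads in 58 genes (0.552%), and 4 h heads from 1 h heads in 9 (0.0857%). In starved heads sr was already at a median of 3.74 RPKM (log2 fold change 0.57 against fed, adjusted p = 0.0106) and CG14186 at 38.2 RPKM (0.67, adjusted p = 0.00270). At 4 h sr was at 1.76 RPKM, which was lower than at 1 h (log2 fold change −0.78, adjusted p = 0.000838). For Hr38 the starved median was 4.66 RPKM (0.16 against fed, adjusted p = 0.568), and the step from starved to 1 h was not called. At 4 h Hr38 was at 1.92 RPKM, below 1 h by 1.60 (adjusted p = 1.97e-05) and below fed heads (−0.82, adjusted p = 0.0123). Of the 15 activity-regulated genes 4 were already called higher in starved than in fed heads. Only 1 of the 15, cbt, was called higher at 1 h than in starved heads. The gene whd was at 129 RPKM in starved heads, 40.3 at 1 h and 36.9 at 4 h, and 1 h lay 1.497 below starved on the log2 scale (adjusted p = 0.00708). The medians of cbt were 16.6 RPKM starved, 41.1 at 1 h and 42.0 at 4 h, with 1 h above starved by 1.56 (adjusted p = 0.00896). CG16978, Drat and CG32512 were also higher at 1 h than in starved heads, by 1.27, 1.39 and 1.97 (adjusted p 0.0120, 0.0103 and 0.0103). For fit the median was 9.28 RPKM starved, 34.1 at 1 h and 80.4 at 4 h, and the steps between these were not called (1 h against starved 1.89, adjusted p = 0.309; 4 h against 1 h 1.48, adjusted p = 0.448). The gene to was at 21.6, 22.6 and 27.9 RPKM in starved, 1 h and 4 h heads.

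**Figure D5:**
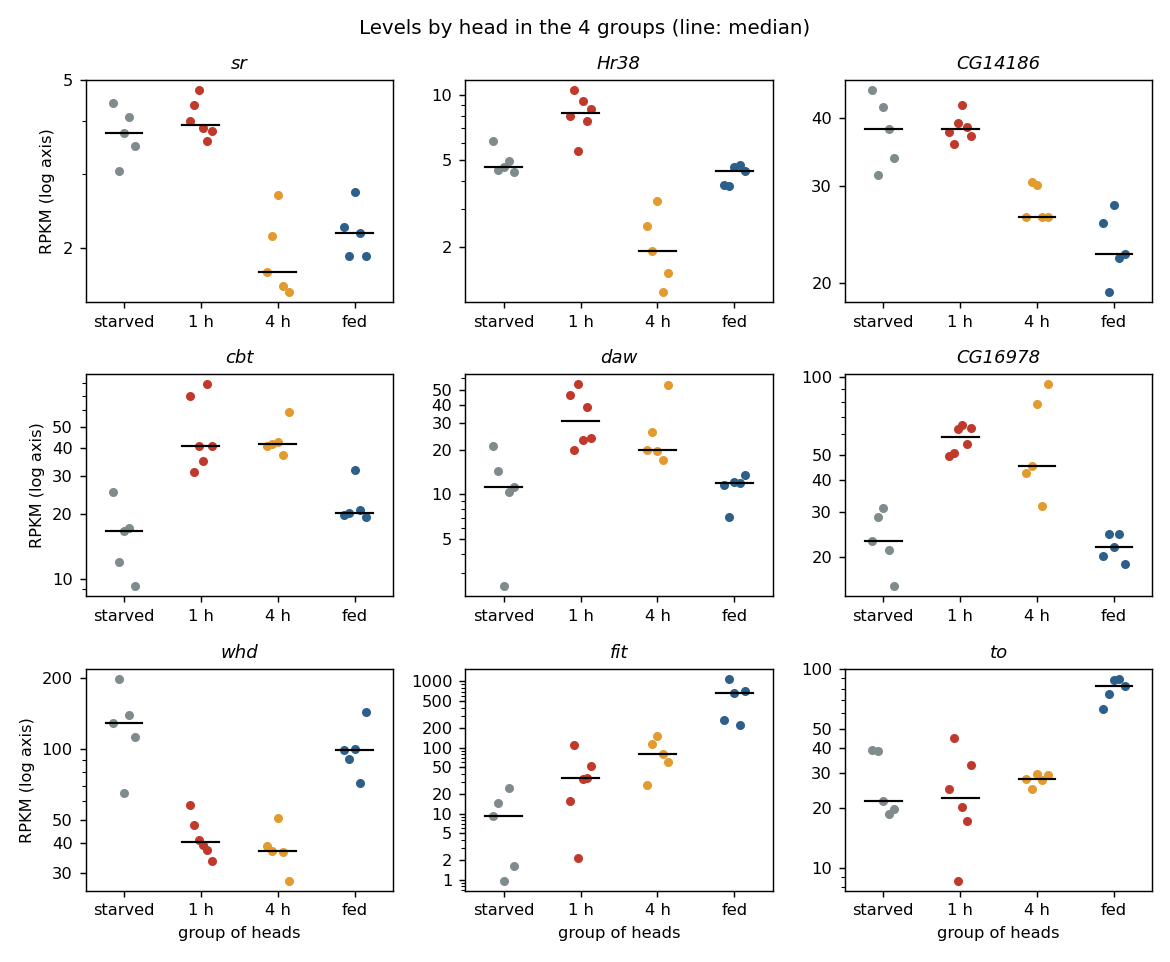
RPKM of 9 genes per head on log axes in starved heads, heads 1 h and 4 h after training and fed heads, with a black line at each median. The 3 activity-regulated genes in the top row are lower at 4 h than at 1 h by 0.78 for sr, 1.60 for Hr38 and 0.45 for CG14186 (log2; the last is not called), whd is low after training and high in starved and fed heads, and fit and to lie below fed heads in all other groups.

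Genes of immune recognition and signaling were called at about the share of all genes. No antimicrobial peptide gene was called, though most were higher at 1 h. Of 34 tested genes of immune recognition and signaling 3 rose and 0 fell, or 8.82%. Over all genes 8.98% were called and 5.13% were higher. The median log2 fold change of this list was 0.15. Myd88, the adaptor of the Toll receptor, had 10.05, 11.4 and 14.2 RPKM in the lowest, median and highest 1 h head, against 7.77, 8.28, 8.86, 7.73 and 7.59 RPKM in fed heads. The groups did not overlap and the rise (log2 fold change 0.51 ± 0.09, adjusted p = 0.00339) held in every fit. The pattern-recognition gene GNBP2 (0.55 ± 0.13, adjusted p = 0.0194) and the Toll pathway inhibitor gene cact (0.59 ± 0.17, adjusted p = 0.0396) also rose, but without 1 h heads 3 and 5 neither was called (0.120 and 0.207). The GNBP2 call was also lost without 1 h head 5 or fed head 6, and that of cact in 7 of the 11 leave-one-out fits (up to 0.0577 and 0.0963). Outside the list and chosen after its values were seen, the serpin gene Spn27A, an inhibitor of melanization, had 39.7, 46.0 and 61.8 RPKM in the lowest, median and highest 1 h head, against 29.2, 34.6, 26.4, 23.4 and 27.3 RPKM in fed heads. It rose by 0.78 ± 0.13 on the log2 scale (adjusted p = 0.00262) in every fit. Of 15 antimicrobial peptide genes 0 were called by limma and 0 by voom, and 4 had an unadjusted p below 0.05. Their log2 fold change was positive for 11 of the 15, with a median of 1.75 and wide differences between heads of the same group. AttB had 10.3 to 253 RPKM at 1 h, against 4.31 to 18.0 RPKM in fed heads (2.56 ± 1.05, adjusted p = 0.120), and DptB had 18.6 to 208 RPKM at 1 h, against 8.95 to 43.0 RPKM in fed heads (1.97 ± 1.11, adjusted p = 0.251). GNBP-like3 had 22.0 to 391 RPKM at 1 h, against 15.3 to 40.8 RPKM in fed heads (1.19 ± 0.86, adjusted p = 0.371). The 15 Bomanin and Daisho peptides, which act downstream of Toll, had 0 calls by limma and 1 by voom, and 5 at an unadjusted p below 0.05. All 15 had a positive log2 fold change, with a median of 0.97. BomS6 and BomS2 did not overlap between groups (529 to 1081 and 628 to 1858 RPKM at 1 h, against 155 to 488 and 226 to 522 RPKM in fed heads), at adjusted p of 0.0776 and 0.140. Of 11 Turandot and JAK/STAT genes, TotM and Stat92E fell and 0 rose, whereas with the same total RPKM in every head 6 rose and 1 fell (log2 fold changes −1.52 ± 0.47 and −0.50 ± 0.12, adjusted p 0.0485 and 0.0186). Stat92E lost its call without fed head 2 or 6 (0.0520 and 0.0541), and TotM in 8 of the 11 leave-one-out fits (up to 0.117).

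Some genes of glutathione synthesis were above the fed state, some glutathione S-transferases and UDP-glycosyltransferases below it, and cytochrome P450 genes went both ways. Called were 18.2% of glutathione and antioxidant genes and 9.68% of glutathione S-transferases. For cytochrome P450 genes the share was 15.3% and for UDP-glycosyltransferases 11.8%. Over all genes it was 8.98% (5.13% higher and 3.85% lower). Of 22 tested glutathione and antioxidant genes 4 rose and 0 fell. Gss1, a glutathione synthetase gene, had 35.0, 37.6 and 41.3 RPKM in the lowest, median and highest 1 h head, against 26.7, 30.7, 31.3, 30.5 and 30.1 RPKM in fed heads. The rise was small, 0.34 ± 0.06 on the log2 scale, but free of overlap and held in every fit (adjusted p = 0.00592). Gss2 is a near-identical copy beside it on the X chromosome with nearly the same values (0.35 ± 0.07), so both are uncertain and count as a single observation. Gclc, the catalytic subunit of glutamate-cysteine ligase, rose by 0.55 ± 0.13 (adjusted p = 0.0217), and maf-S, the partner of the antioxidant factor CncC, by 0.51 ± 0.12 (adjusted p = 0.0158). Without 1 h heads 3 and 5 neither of these was called (0.0826 and 0.0944), and Gclc lost its call without 1 h head 5 or fed head 2, 3 or 6 as well (0.0512 to 0.0601). Gclm, the modifier subunit of the same ligase, was level with fed heads (0.06 ± 0.30). Of 31 tested glutathione S-transferases 3 fell and 0 rose, GstS1 (−1.15 ± 0.33), GstE13 (−0.52 ± 0.12) and GstE10 (−0.45 ± 0.12), while with the same total RPKM in every head 2 of the list rose and 1 fell. None of the 3 was called without 1 h heads 3 and 5. Of 72 cytochrome P450 genes 5 rose and 6 fell, against 11 and 3 with the same total RPKM in every head. Cyp4d21 had 1.69, 4.91 and 10.05 RPKM in the lowest, median and highest 1 h head, against 17.3, 19.6, 26.8, 20.8 and 17.5 RPKM in fed heads. It was the P450 gene that fell most without overlap (−1.88 ± 0.35, adjusted p = 0.00606) and the only one called in every fit. Of 17 UDP-glycosyltransferases Ugt35C1 and Ugt317A1 fell (−1.09 ± 0.34 and −0.86 ± 0.25), calls that were lost in 8 and 6 of the 11 leave-one-out fits (adjusted p up to 0.117 and 0.102).

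Of 37 tested autophagy and TOR genes 6 rose and 1 fell, and with the same total RPKM in every head 15 rose and 0 fell. The autophagy receptor gene ref(2)P (p62 of mammals) had 89.0, 114 and 199 RPKM in the lowest, median and highest 1 h head, against 88.2, 68.2, 73.7, 83.9 and 72.9 RPKM in fed heads. The lowest 1 h head was just above the highest fed head. The rise (log2 fold change 0.64 ± 0.14, adjusted p = 0.0145) held in every fit that left out heads, but was not called in the fit of only the 11 heads. Atg101 (0.53 ± 0.15), Rheb (0.47 ± 0.12) and rictor (0.44 ± 0.12) rose as well, at adjusted p of 0.0350, 0.0269 and 0.0332, but without 1 h heads 3 and 5 none of them was called. Mitf, a lysosome regulator named after its values were seen, fell by 0.20 ± 0.06 (adjusted p = 0.0489), a call lost in 10 of the 11 leave-one-out fits (up to 0.107), and with the same total RPKM in every head its log2 fold change was 0.08 and not called. Atg8a was not called at 0.57 ± 0.19 (adjusted p = 0.0664). In the endoplasmic reticulum list 2 of 52 genes rose, a smaller share than the 5.13% over all genes, the unfolded protein response genes Xbp1 (0.70 ± 0.18, adjusted p = 0.0253) and Ire1 (0.40 ± 0.09, adjusted p = 0.0178). Xbp1 was highest in 1 h heads 3 and 5 (345 and 284 RPKM) and its call was lost without 1 h head 5 or fed head 6 (0.0673 and 0.0651), and that of Ire1 without fed head 6 (0.0541). In the same list 3 fell, among them the translocon gene Sec61alpha (−0.79 ± 0.23, adjusted p = 0.0422, lost in 6 of the 11 leave-one-out fits), whereas with the same total RPKM in every head 7 rose and 0 fell. Of 39 heat shock genes and chaperones 1 rose, also a smaller share than over all genes, stv (starvin), a BAG-domain cochaperone (0.57 ± 0.13, adjusted p = 0.0177, and 0.0514 without fed head 2).

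Of 76 cytosolic ribosomal protein genes 0 were called by limma or voom (median 0.04), with 0 at an unadjusted p below 0.05, although with the same total RPKM in every head 14 rose. Of 68 nuclear oxidative phosphorylation genes 0 were called by limma and 1 by voom, with 3 at an unadjusted p below 0.05 (median −0.12). Of 71 mitochondrial ribosomal protein genes 10 fell and 1 rose with the values as deposited (median −0.27), and 2 were higher and 36 lower at an unadjusted p below 0.05, led by mRpL20 (−0.63 ± 0.17, adjusted p = 0.0276). At the same 75th percentile 13 fell and 0 rose, whereas with the same total RPKM in every head 5 rose and 0 fell. Without 1 h heads 3 and 5 there were 0 calls, so the calls rested on the scaling chosen and on these heads. Of 13 mitochondrially encoded genes mt:ND4L, mt:ND6 and mt:ND4 fell (−1.004 ± 0.27, −0.77 ± 0.24 and −0.47 ± 0.13), and the far more abundant mt:CoI was level (−0.06 ± 0.13). None of the 3 was called without 1 h heads 3 and 5 or with the same total RPKM in every head.

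Some eye pigment, clock and odorant-binding genes fell, and several of these calls depended on certain heads. Called were 15.4% of pteridine genes, 16.7% of clock genes and 16.1% of odorant-binding and Che genes. For the takeout and juvenile hormone binding list the share was 10%, and over all genes 8.98%. The pteridine gene se (sepia), a glutathione transferase of red eye pigment synthesis, had 13.2, 18.9 and 37.2 RPKM in the lowest, median and highest 1 h head, against 42.6, 70.4, 77.9, 37.1 and 92.9 RPKM in fed heads. The highest 1 h head just passed the lowest fed head, and the fall (−1.49 ± 0.28, adjusted p = 0.00604) held in every fit. Among the other pteridine genes of the 13 tested, pr (purple) fell by 0.82 ± 0.19 (adjusted p = 0.0168), a call lost without fed head 6 (0.0541). Of 18 clock genes 3 fell, tim (−0.69 ± 0.21, adjusted p = 0.0439), CkIIalpha (−0.26 ± 0.08, adjusted p = 0.0439) and to, which was already counted among the fat body proteins. The collection hour is not given in the sources used here. The call of tim was lost in 9 and that of CkIIalpha in 7 of the 11 leave-one-out fits, with adjusted p up to 0.103 and 0.126. With the same total RPKM in every head CkIIalpha was at 0.04 and 4 clock genes rose and 1 fell. In the takeout and juvenile hormone binding list to and Jhbp15 fell, 2 of 20, and both held in every fit. Jhbp15 had 0.431, 1.01 and 1.54 RPKM in the lowest, median and highest 1 h head, against 2.43, 2.99, 3.81, 10.5 and 4.15 RPKM in fed heads (−1.42 ± 0.23, adjusted p = 0.00262). Of 31 odorant-binding and Che proteins 4 fell and 1 rose (2 and 2 with the same total RPKM in every head), led by Obp99a (−3.39 ± 0.86, adjusted p = 0.0240), and none of the 5 was called without 1 h heads 3 and 5. The 1 that rose, Obp57d, has the same exons as the cuticle gene Cpr57A in the annotation and identical values, so its rise of 0.56 ± 0.13 belongs to either. Of 27 olfactory, taste and ionotropic receptor genes 0 were called by limma and 1 by voom, with 3 at an unadjusted p below 0.05.

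Neuropeptide and monoamine genes were mostly level. Of 33 neuropeptide genes CCHa1 fell without overlap (−0.82 ± 0.19, adjusted p = 0.0168), Ilp5 fell, and AstC rose (0.32 ± 0.08, adjusted p = 0.0191). CCHa1 lost its call without fed head 6 (0.0541), AstC without fed head 2 or 6 (0.0574 and 0.0561). The tyrosine hydroxylase gene ple, which sets dopamine synthesis and also feeds cuticle pigment, had 13.3, 23.2 and 31.0 RPKM in the lowest, median and highest 1 h head, against 47.7, 54.8, 42.8, 31.0 and 35.6 RPKM in fed heads. The highest 1 h head was level with the lowest fed head, and ple fell by 0.92 ± 0.24 on the log2 scale (adjusted p = 0.0245), and the call was lost without 1 h head 3 or 5 or fed head 2 or 3 (0.0539 to 0.0702). Of 16 tested basement membrane and matrix genes, the protease gene Mmp1 (0.91 ± 0.23, adjusted p = 0.0228), its inhibitor gene Timp (0.55 ± 0.12, adjusted p = 0.0123) and the collagen-like gene Mp (0.36 ± 0.09, adjusted p = 0.0221) rose. The collagen gene Col4a1 and SPARC of the same list were lower but not called (−0.62 ± 0.32 and −0.57 ± 0.26), and the list's median was −0.41. Without 1 h heads 3 and 5 none of the matrix genes was called.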

How the data were processed

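RNA of single fly heads was sequenced from polyA-selected libraries that did not keep the strand. The authors deposited RPKM per gene, made on dm6 with CASAVA 1.8.2, TopHat2 2.0.13 and edgeR 3.18.1 per the submitters' processing notes. A part of the study's methods describes TopHat and cuffdiff on dm3 with uniquely mapping reads. Another part, on the processing of the genomic data sets, names dm6 and tophat2 for these sucrose data, as the processing notes do. That part does not say how reads with several matches were treated, so this is not settled for the table used here. RPKM of 17212 of the 17559 genes were above 0 in at least 1 head, and 100% of values were whole reads within 0.02 when divided by the value of 1 read. Here log2(RPKM + 1) of 10501 genes with at least 1 RPKM in at least 5 heads was fitted for all 21 heads with limma 3.58.1 in R 4.3.3 (group means, eBayes with a trend, Benjamini-Hochberg over all genes, threshold 0.05, 2-sided), and the 1 h and fed groups were contrasted. On simulated data for this contrast, 200 of 200 genes changed 4-fold were called, with 219 calls in all and 0 where no gene was changed. The simulated reads were drawn independently for each head, with the same dispersion for every gene and no head set apart. Real heads did lie apart, so the simulation cannot give the error rate of the calls reported here. Nothing in the sources says that heads of a group came from separate cultures, so p-values measure the spread between these heads. Gene names came from the files' annotation, 16501 gene lengths matched BDGP6.54, and positions are of that build. Named genes were the 12 highest and 12 lowest called genes without overlap, the 10 of smallest adjusted p, called and leading genes of each list and genes the study names, and all others are said to be chosen after their values were seen. The members and gene lists were chosen with earlier results of these data known.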

Additional observations from a re-analysis of the deposited data

Results flagged for a closer look

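In a search of both groups of heads for each of the 128 genes named here, a single head lay far from the others of its group in 13 of 256 groups, or 5.08%, and chance flags about 1 in 20 groups. The values are the gap to the nearest head as a share of the range of the group. Among 1 h heads, head 3 was far above the rest in Arc1 (0.756) and Jra (0.630) and far below in sfl (0.807), and head 1 far below in foxo (0.765). Among fed heads, head 2 was far above in Karl (0.778), Mondo (0.723) and Ugt317A1 (0.770) and far below in CG4577 (0.723), daw (0.743) and stv (0.716). The other fed heads that lay apart were head 3 above in cbt (0.854), head 1 below in Gss1 (0.764) and head 5 above in mt:ND6 (0.726). Fed head 2 thus held 6 of the 9 flags of fed heads.

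For some genes named here the difference itself was called between 1 h heads and starved heads, or between 4 h and 1 h heads, by limma with all genes adjusted for. Higher at 1 h than in starved heads, on the log2 scale, were Nepl4 (2.48), CG32512 (1.97), cbt (1.56), Gclm (1.55), asRNA:CR45943 (1.42), Drat (1.39), Pcyt1 (1.36), CG16978 (1.27), CG13255 (1.27), kraken (1.197), Mmp1 (1.10), Gbs-76A (1.004), Kah (0.95), Best1 (0.41), Myd88 (0.41) and SCAP (0.32). Lower at 1 h than in starved heads was whd (−1.497). At 4 h, Hr38 (−1.598) and sr (−0.78) were lower than at 1 h.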

How the results depend on the processing

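The count of 943 called genes was within 1.5 times under a pseudocount of 0.1, without a filter, with a mean RPKM of at least 5, at the same 75th percentile, without a trend or with a robust eBayes, and with the replicate block, which called 882. It was 2162 at the same total RPKM, 1429 by voom on recovered reads, 1679 with sample quality weights and 131 in the fit of only the 11 heads, which kept 41 of the 101 called genes named here. Leaving out single heads gave 278 to 1655. Chosen after seeing the data were the same total RPKM without small structural RNA genes (1693), the fit without the 3 heads farthest from their own group (349) and the fit without 1 h heads 3 and 5 (153). Of the higher and lower calls, 57.2% were higher in the fit as reported, 92.6% at the same total without small structural RNA genes, 87.9% by voom and 49.1% with quality weights. At the same total RPKM 3 of these 101 genes, and 83 of all 943, changed sign, and the 3 were no longer called, CkIIalpha (0.044), Mitf (0.083, and 0.018 without small structural RNA genes) and sfl (0.011), since that scaling raised the median of all genes. Replicate numbers did not pair the heads, as correlations of same-numbered heads ran from −0.133 to 0.065, and none correlated best with its own number. With 6 against 5 heads the smallest 2-sided permutation p for 1 gene is 0.00433. Depth limits genes with few reads, such as CG31465 with 7 to 221 reads per 1 h head.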

Other observations

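The genes in these paragraphs were chosen after their values were seen, from genes called in every fit that left out heads, and no test was made of them as groups. In the fit of only the 11 heads AMPKalpha, alc, Gbs-76A, sfl, Tpst and kraken were not called (adjusted p 0.0529 to 0.0840). A pair of AMP-activated kinase subunit genes was above the fed state. AMPKalpha, the catalytic subunit of this sensor of low cellular energy, had 58.9, 62.7 and 68.7 RPKM in the lowest, median and highest 1 h head, against 56.4, 43.2, 49.1, 46.9 and 50.3 RPKM in fed heads. The groups did not overlap (log2 fold change 0.37 ± 0.06, limma adjusted p = 0.00328). The regulatory subunit gene alc rose by 0.66 ± 0.13 (adjusted p = 0.00820), with 1 fed head above the lowest 1 h head. Starved heads, set against the same fed heads, were at 0.30 for AMPKalpha and 0.55 for alc (adjusted p 0.0322 and 0.0488). Gbs-76A, a glycogen-binding subunit of protein phosphatase 1, had 21.1, 32.3 and 41.0 RPKM in the lowest, median and highest 1 h head, against 16.8, 19.5, 15.4, 22.5 and 13.7 RPKM in fed heads. It rose by 0.77 ± 0.16 (adjusted p = 0.0110) and was also higher at 1 h than in starved heads, by 1.004 (adjusted p = 0.00896).

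Among sulfation genes other than Papss, the heparan sulfate sulfotransferase gene sfl and the protein tyrosine sulfotransferase gene Tpst fell by 0.27 ± 0.05 and 0.42 ± 0.09 (limma adjusted p 0.00581 and 0.0134). With the same total RPKM in every head sfl was at 0.01 and Tpst at −0.14, and neither was called. Exons of Tpst overlap those of CG46311, and without strand the reads of both cannot be told apart.

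Further genes without overlap were Best1, kraken and CG13255. The chloride channel gene Best1 had 16.7, 20.6 and 23.95 RPKM in the lowest, median and highest 1 h head, against 14.6, 14.5, 14.1, 13.5 and 12.2 RPKM in fed heads (log2 fold change 0.52 ± 0.08, limma adjusted p = 0.00174). The hydrolase gene kraken rose by 1.28 ± 0.26 (adjusted p = 0.00873), most in 1 h heads 3 and 5, and by 0.86 without them. CG13255 rose by 0.97 ± 0.14 (adjusted p = 0.00140) and shares its exons in part with asRNA:CR45943, which rose by 1.05 ± 0.15.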
